A study of Mus musculus with 4 samples.

Results

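Interferon response genes and antigen processing genes were described here in OP9, a stromal cell line from mouse bone marrow, whose cells carried a retroviral vector with or without the Wnt3A gene. The set held 37 genes, 26 that act in antiviral defence or interferon signalling and 11 that prepare peptides for display at the cell surface. Every probe of a 1-colour Agilent mouse array that names one of them, directly or through its transcript accession, was taken. The array named 36 of the 37 genes with 59 probes, out of 27597 genes and 41174 probes in all. Expression of Xaf1 was not analysed here, and this gene enters only the promoter motif counts below. After removal of dim probes, 51 probes and 33 genes were tested, out of 22859 genes over the whole array.

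There were 4 samples with 1 array each. Wnt3A replicates 1 and 2 came from OP9 cells with LZRS-IRES-GFP, a retroviral vector, containing Wnt3A, and Control replicates 1 and 2 came from OP9 cells with the LZRS-IRES-GFP vector alone. All cells were grown in MEM with fetal calf serum. Both groups thus carried the retroviral vector, and no untransduced cells were compared, so the effect of the vector itself on these genes was not measured. The labels do not say whether a group was 1 clone or whether its replicates were separate cultures, so the spread behind each p-value may be technical. Before labelling, cDNA made from the mRNA was amplified by a global PCR. Fewer transcripts per cell and fewer cells that express a gene cannot be told apart in such samples.

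Interferons bind receptors at the cell surface and activate JAK kinases, which phosphorylate STAT proteins. Type I interferon leads to a complex with STAT2 and IRF9 that binds the interferon-stimulated response element (ISRE), while the response to interferon gamma acts through the gamma-activated site (GAS). Targets include sensors and inhibitors of viral RNA and the immunoproteasome, in which the subunits encoded by Psmb8, Psmb9 and Psmb10 replace the constitutive catalytic subunits encoded by Psmb5, Psmb6 and Psmb7. Its peptides are carried by the Tap1-Tap2 transporter to MHC class I molecules.

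The results turn most on Psmb8, which had 2 probes. They are printed because they are separate readings of 1 transcript. The first lies at chr17:33811038-33811097 and the second at chr17:33811095-33811419 (mm8, plus strand, the second spanning more than its 60 bases). They share only the 3 bases in capitals.
Psmb8 probe 1, A_51_P345367: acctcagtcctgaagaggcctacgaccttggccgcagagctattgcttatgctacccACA
Psmb8 probe 2, A_51_P345366: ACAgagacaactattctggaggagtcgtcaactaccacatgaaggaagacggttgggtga

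The probe of Ifit2, the member with the smallest p among those higher in Wnt3A arrays, lies at chr19:34639814-34639873 (mm8, plus strand), and no base is marked.
Ifit2 probe, A_52_P542388: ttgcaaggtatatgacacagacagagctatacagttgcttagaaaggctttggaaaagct

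Promoters of 4 members are shown to set Psmb8 beside Tap1, its near neighbour, and beside Isg15 and Ifit1, classical interferon targets. Each is the 250 bases before the annotated start in RefSeq on GRCm38.p6, with capitals for matches to the ISRE core, which is GAAA, any 2 bases and GAAA again, or the GAS motif TTCNNNGAA on either strand. Psmb8 lies at chr17:34197945-34198194 (plus strand), Tap1 at chr17:34187306-34187555 (plus), Isg15 at chr4:156200819-156201068 (minus) and Ifit1 at chr19:34640639-34640888 (plus).
Psmb8: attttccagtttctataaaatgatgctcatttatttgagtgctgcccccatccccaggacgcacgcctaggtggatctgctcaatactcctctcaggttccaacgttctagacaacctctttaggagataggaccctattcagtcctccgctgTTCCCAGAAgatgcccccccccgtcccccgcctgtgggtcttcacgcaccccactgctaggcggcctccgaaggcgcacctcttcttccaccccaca
Tap1: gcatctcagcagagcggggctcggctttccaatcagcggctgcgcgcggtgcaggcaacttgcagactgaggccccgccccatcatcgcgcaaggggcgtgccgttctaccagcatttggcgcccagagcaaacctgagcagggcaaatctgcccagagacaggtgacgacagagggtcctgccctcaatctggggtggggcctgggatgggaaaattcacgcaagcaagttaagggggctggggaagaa
Isg15: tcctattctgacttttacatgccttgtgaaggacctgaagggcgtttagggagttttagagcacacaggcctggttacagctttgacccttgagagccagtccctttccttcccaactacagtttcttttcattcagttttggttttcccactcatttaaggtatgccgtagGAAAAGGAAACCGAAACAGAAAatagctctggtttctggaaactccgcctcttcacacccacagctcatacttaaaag
Ifit1: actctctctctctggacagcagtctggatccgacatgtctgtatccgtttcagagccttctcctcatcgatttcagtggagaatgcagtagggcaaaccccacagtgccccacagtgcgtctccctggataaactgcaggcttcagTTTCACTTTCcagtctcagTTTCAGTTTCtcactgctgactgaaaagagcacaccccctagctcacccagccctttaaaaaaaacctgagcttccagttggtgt

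The Isg15 stretch held 3 overlapping ISRE cores that begin 78, 72 and 66 bases before the start, and the Ifit1 stretch held 2, at 104 and 85 bases. The Psmb8 stretch held no ISRE core and 1 GAS match, at 97 bases. The Tap1 stretch held no match to either motif. The window of Psmb9 lies on the opposite strand and shares 275 of its 300 bases with that of Tap1. Windows of 300 bases, which add 50 bases after the start, were available for 33 of the 37 members, some with more than 1 start. The ISRE core was found in 14 of 27 antiviral windows (51.9%) and 2 of 12 antigen processing windows (16.7%), against 3.44% of all 32851 promoter windows. The GAS motif was found in 7 of 27 antiviral windows (25.9%) and 1 of 12 antigen processing windows (8.33%), against 8.30% of all windows. These are matches of letters and do not show binding.

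The values come from the deposited table of linear intensities, in which the median spot of each array is 1. An intensity depends on the probe, so levels were compared between arrays and not between genes. The estimated detection floor lay at 0.0533 and 0.0729 in Wnt3A arrays and 0.0702 and 0.0631 in Control arrays, and 80.7% to 83.7% of spots were above it. Rank correlations between arrays of 1 group were 0.950 to 0.954 and between groups 0.924 to 0.929. The scanner files deposited for the same samples did not match the table array by array. All 4 table columns were closest to the scanner file of Control replicate 2, and the correlation of a column with its own sample's file was 0.637 to 0.826. The scanner file of Control replicate 1 was faint, with 41.8% of its spots well above background. Differences from the scanner files are given for each list, and for the members whose sign turned there. Over all tested genes the median log2 difference was −0.09 in the scanner signal, −0.24 after normexp background correction of the scanner values and 0.18 in the scanner signal without Control replicate 1. The Wnt3a probe, which starts at base 2599 of its transcript, read 0.0112 and 0.123 in Wnt3A arrays, against 0.0151 and 0.0134 in Control arrays, and passed the floor in Wnt3A replicate 2 alone. The labels do not say which part of the gene the vector carried, and this probe is no check of the groups.

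None of the 33 tested members passed an adjusted p of 0.05 in limma, where 0.761% of all tested genes did. Psmb8 came nearest, with an adjusted p of 0.0511. At an unadjusted p under 0.05, 1 member was higher in Wnt3A arrays (3.03%) and 7 were lower (21.2%), against 6.78% and 6.94% of all tested genes. Both Wnt3A arrays lay above both Control arrays for 7 members and below them for 14, against 21.5% and 23.7% of all tested genes. The median log2 difference, Wnt3A minus Control, was −0.35 over the tested members and −0.01 over all tested genes. Of the members, 12 had a difference above 0 and 21 below it, where all tested genes had 49% above and 51% below.

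Antiviral and interferon-signalling members counted 15 lower and 7 higher among the 22 tested, with a median log2 difference of −0.37. The median log2 level of the list on an array had an SD of 0.49 between arrays of 1 group. That is a spread of levels on single arrays, and the spread of the median difference itself was not measured. Without Control replicate 1 the table gave 12 lower and 10 higher. In the scanner signal 17 of 25 were lower and 8 higher, with a median of −0.55. In the table, 6 members were lower and 1 was higher at an unadjusted p under 0.05, where all tested genes had 6.94% lower and 6.78% higher. Groups did not overlap for 11 members that were lower and 4 that were higher in Wnt3A arrays, beside 23.7% and 21.5% of all tested genes. The differences spanned −2.08 to 1.74 on the log2 scale, leaving aside Gbp2, whose value rests on a Control array below the floor.

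**Figure D1:**
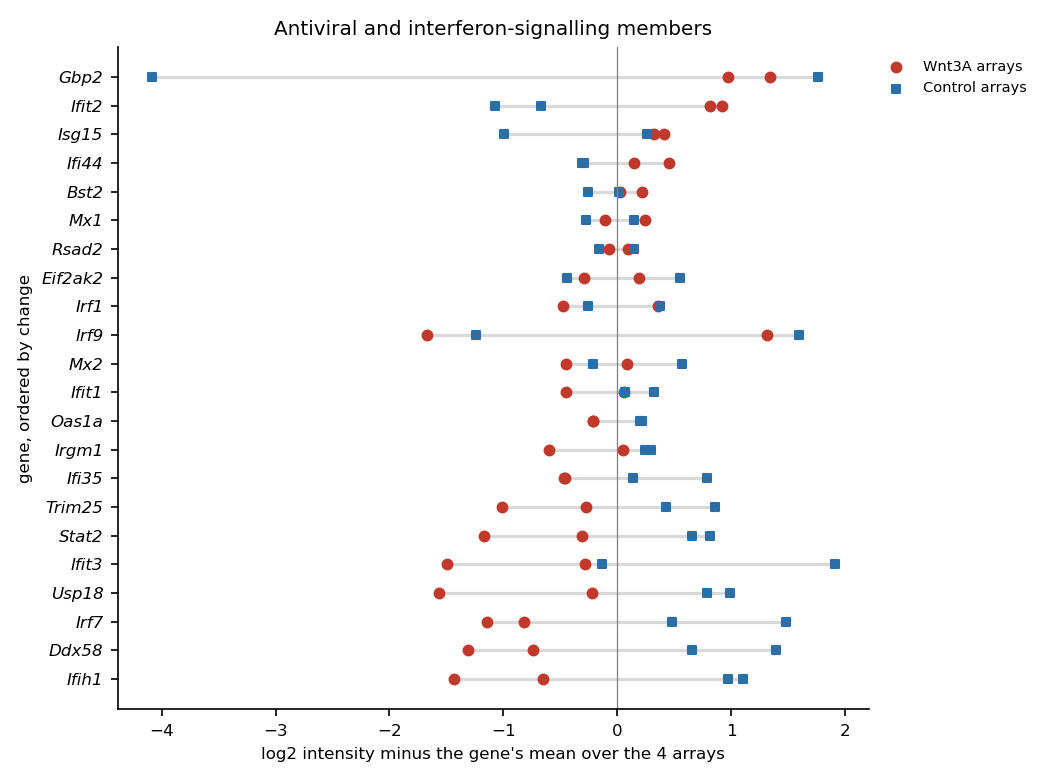
Log2 intensity of each tested antiviral member on each array, minus the mean of the gene over the 4 arrays (x axis), with genes ordered by their log2 difference (y axis). Circles are the 2 Wnt3A arrays and squares the 2 Control arrays; both circles lie left of both squares for 11 genes, with Ifih1, Ddx58 and Irf7 among the widest apart, and right of them for 4 genes, of which Ifit2 is the widest apart.

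Among the factors that carry the signal, Stat2, the subunit specific to the type I complex, had intensities of 0.344 and 0.639 in Wnt3A arrays, against 1.34 and 1.29 in Control arrays. The log2 difference was −1.48 ± 0.40 (SE, n = 2 arrays a group), with a limma adjusted p of 0.251. Both Wnt3A arrays lay below both Control arrays. Irf7, the factor that amplifies type I interferon production, had 0.490 and 0.402 in Wnt3A arrays, against 2.37 and 1.27 in Control arrays. Its log2 difference was −1.96 ± 0.45 (adjusted p = 0.197), and the groups again did not overlap.

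Irf9, the DNA-binding subunit of the type I complex, varied between the arrays of each group. Its brighter probe read 1.32 and 10.6 in Wnt3A arrays, against 1.74 and 13.4 in Control arrays, a log2 difference of −0.35 ± 1.43 (adjusted p = 0.951). In each group replicate 1 was low and replicate 2 high, and with 1 array left out the difference was −1.84 to 1.14. The second Irf9 probe read 1.61 and 1.56 in Wnt3A arrays, against 2.30 and 1.99 in Control arrays, a log2 difference of −0.42 without that split. Irf1, a factor induced by interferon gamma, had a log2 difference of −0.12 with its brighter probe and 0.28 with its other probe, and 1.16 in the scanner signal.

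Ifih1 and Ddx58, sensors of viral RNA in the cytoplasm, were lower in both Wnt3A arrays than in both Control arrays, without passing the adjusted threshold. Ifih1, which senses long double-stranded RNA and was read by a probe at chr2:62407895-62410042 (mm8, minus strand), had 0.106 and 0.186 in Wnt3A arrays, against 0.551 and 0.648 in Control arrays. The log2 difference was −2.08 ± 0.38 (adjusted p = 0.141). The Wnt3A values were within a few times the floor, and the second Ifih1 probe read 0.188 and 0.0228 in Wnt3A arrays, against 0.628 and 0.269 in Control arrays, with Wnt3A replicate 2 below the floor. Ddx58, which encodes the sensor RIG-I and was read at chr4:40398556-40398615 (mm8, minus strand), had 1.36 and 0.930 in Wnt3A arrays, against 3.50 and 6.29 in Control arrays. Its log2 difference was −2.05 ± 0.42 (adjusted p = 0.166). Both of its other kept probes also gave differences below 0, of −1.56 and −1.52, with the groups apart for the first and overlapping for the second. Dhx58, from the list of nucleic acid sensors described below, read 0.571 and 0.132 in Wnt3A arrays, against 0.480 and 1.38 in Control arrays. Its groups overlapped, with a log2 difference of −1.55 ± 0.92.

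Trim25, a ubiquitin ligase that activates RIG-I, had 1.84 and 3.14 in Wnt3A arrays, against 6.59 and 5.27 in Control arrays, a log2 difference of −1.28 ± 0.40 (adjusted p = 0.299). Its second probe read 1.69 and 0.780 in Wnt3A arrays, against 1.29 and 1.49 in Control arrays, a log2 difference of −0.26 with overlapping groups. The Trim25 probes thus gave differences of unlike size. Eif2ak2, the kinase that stops translation on double-stranded RNA, had a log2 difference of −0.10 and overlapping groups.

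The Ifit genes, whose products bind viral RNA, differed in direction. Ifit2 had 20.6 and 19.5 in Wnt3A arrays, against 5.07 and 7.20 in Control arrays, a log2 difference of 1.74 ± 0.31 (adjusted p = 0.130). Its second probe read 11.1 and 9.28 in Wnt3A arrays, against 4.98 and 4.32 in Control arrays, a log2 difference of 1.14. Both probes put both Wnt3A arrays above both Control arrays, but in the scanner signal the log2 difference was −0.34. Ifit3 had 0.504 and 1.20 in Wnt3A arrays, against 5.25 and 1.37 in Control arrays, a log2 difference of −1.78 ± 0.86 (adjusted p = 0.482). Without Control replicate 1 it was −0.76. Ifit1 had a log2 difference of −0.39 with groups that did not overlap. The 3 genes neighbour one another on chromosome 19 and have similar sequences, so probes may share signal between them.

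Isg15, the ubiquitin-like protein that is attached to other proteins after interferon, had 42.6 and 46.4 in Wnt3A arrays, against 40.1 and 18.1 in Control arrays. The log2 difference was 0.73 ± 0.51 (adjusted p = 0.627). Control replicate 2 was the low array, and the difference was 0.11 without it. In the scanner signal the difference was 0.94, and −1.86 there without Control replicate 1. The array annotation places this probe on chromosome 17 of mm8, while the RefSeq gene lies on chromosome 4, so the reading is uncertain. Usp18, the protease that removes ISG15 and restrains the type I receptor, had 0.816 and 0.330 in Wnt3A arrays, against 1.61 and 2.00 in Control arrays. Its log2 difference was −1.78 ± 0.54 (adjusted p = 0.287) with no overlap. Ifi35 had 9.60 and 9.75 in Wnt3A arrays, against 22.3 and 15.4 in Control arrays, a log2 difference of −0.93 ± 0.35 (adjusted p = 0.373).

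The other effectors gave small or uneven differences. Log2 differences were 0.60 for Ifi44, −0.42 for Oas1a of the oligoadenylate synthetases, −0.36 for Mx2 and 0.13 for Mx1 of the antiviral dynamin-like GTPases, 0.24 for Bst2, which tethers budding virus, and 0.02 for Rsad2, which encodes viperin. Adjusted p-values for these 6 were 0.487 to 0.989. In the scanner signal the signs of Ifi44 and Mx1 turned, to −0.97 and −0.55. Without Control replicate 1 in that signal, those of Bst2, Rsad2 and Mx2 turned as well, to −0.47, −1.18 and 0.15. Irgm1, an interferon-gamma-induced GTPase, gave −0.54 with its brighter probe and 1.30 with a second one, which read 2.42 and 12.5 in Wnt3A arrays, against 1.69 and 2.99 in Control arrays. The scanner values gave 0.04 for Irgm1 after normexp and 0.007 in the signal without Control replicate 1. Gbp2, a guanylate-binding protein, read 0.729 and 0.966 in Wnt3A arrays, against 1.24 and 0.0231 in Control arrays. Its fitted log2 difference of 2.32 ± 2.02 rests on Control replicate 2, which was below the floor, and was −0.60 without that array. The scanner values gave −0.36 for Gbp2 after normexp and −1.23 in the signal without Control replicate 1. Igtp read 0.0112 and 0.0153 in Wnt3A arrays, against 0.674 and 0.0139 in Control arrays, and Oasl2 read 0.0117 and 0.0163 in Wnt3A arrays, against 0.303 and 0.0148 in Control arrays. Both were above the floor only in Control replicate 1. Gbp3 was below the floor on all 4 arrays, and these 3 genes were not tested.

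Antigen processing members counted 6 lower and 5 higher in Wnt3A arrays among the 11 tested, with a median log2 difference of −0.14. The median log2 level of this list on an array had an SD of 0.22 between arrays of 1 group, again a spread of levels and not of that difference. The scanner files did not keep this split: 10 were higher and 1 lower both in the scanner signal (median 0.38) and after normexp (1.07), and 3 were higher and 8 lower in the scanner signal without Control replicate 1 (−0.09). All 11 were above the floor on all 4 table arrays. At an unadjusted p under 0.05, 1 was lower in the table and none was higher, where all tested genes had 6.94% and 6.78%. Groups did not overlap for 3 members in each direction, near the 23.7% lower and 21.5% higher of all tested genes, and Psmb8 alone differed by 1 or more on the log2 scale.

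**Figure D2:**
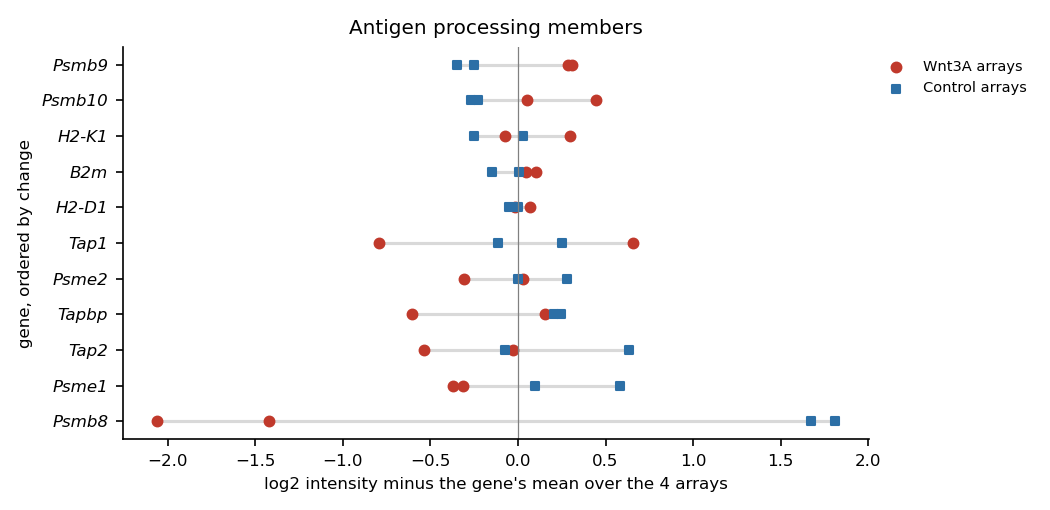
Log2 intensity of each antigen processing member on each array, minus the mean of the gene over the 4 arrays (x axis), with genes ordered by their log2 difference (y axis). Circles are the 2 Wnt3A arrays and squares the 2 Control arrays; Psmb8 spans about the whole axis with its groups apart, and all other genes lie within 1 of their mean.

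Psmb8, the immunoproteasome subunit that replaces Psmb5, had the lowest log2 difference of the set. Its first probe read 1.19 and 1.90 in Wnt3A arrays, against 17.1 and 16.7 in Control arrays. Both Wnt3A arrays lay far below both Control arrays, by 11.2-fold on average, a log2 difference of −3.48 ± 0.35 (SE, n = 2 arrays a group, unadjusted p = 0.000415, adjusted p = 0.0511). It ranked 185 by p among the 22859 tested genes. The second probe read 0.879 and 1.04 in Wnt3A arrays, against 12.1 and 8.71 in Control arrays, a log2 difference of −3.41 ± 0.36 (adjusted p = 0.0588 among probes). The result lay at the threshold. Over 12 other settings of the table the difference was −3.80 to −3.16 and the adjusted p 0.0295 to 0.201, and 4 of them passed 0.05. In the scanner files the difference had the other sign, at 0.98, and was −0.09 without the faint Control replicate 1.

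Psmb9, the partner that replaces Psmb6, had 15.9 and 16.0 in Wnt3A arrays, against 9.88 and 11.4 in Control arrays, a log2 difference of 0.60 ± 0.27 (adjusted p = 0.459). Psmb10, which replaces Psmb7, had 8.40 and 11.3 in Wnt3A arrays, against 6.62 and 7.34 in Control arrays, a log2 difference of 0.49 ± 0.30 (adjusted p = 0.580). For both genes both Wnt3A arrays lay above both Control arrays in the table, opposite to Psmb8. In the scanner signal Psmb9 had 0.37 and Psmb10 1.68, on either side of the 0.98 of Psmb8. The constitutive subunits had log2 differences of 0.21 for Psmb5, 0.40 for Psmb6 and −0.13 for Psmb7. Psme1, a proteasome activator subunit, had 10.4 and 11.1 in Wnt3A arrays, against 19.9 and 15.3 in Control arrays, a log2 difference of −0.68 ± 0.32 (adjusted p = 0.470). Its partner Psme2 had a log2 difference of −0.28 with overlapping groups. Both signs turned in the scanner signal, to 1.22 and 1.36. Without the faint Control replicate 1 in that signal Psme1 had 0.84 and Psme2 −0.03.

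**Figure D3:**
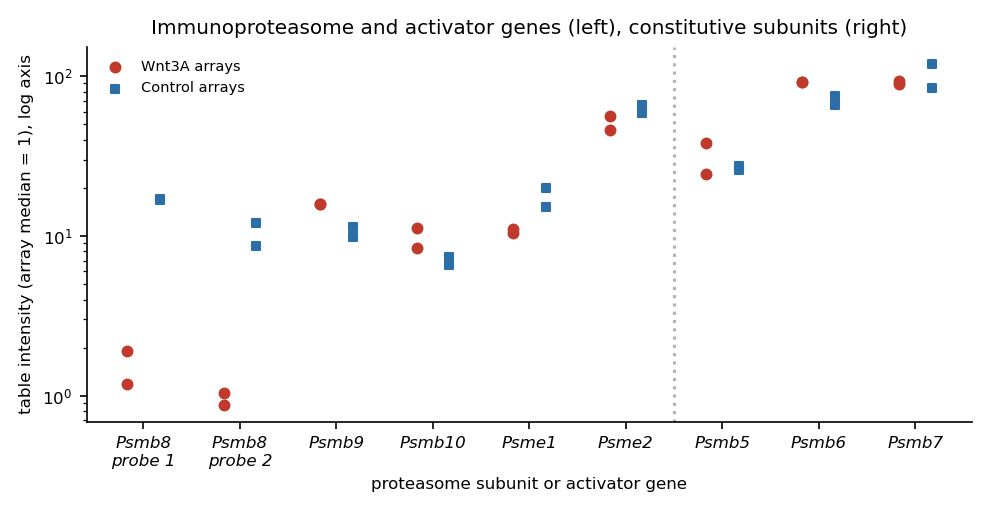
Table intensity (log axis, array median = 1) of the 2 Psmb8 probes, the other immunoproteasome and activator genes and, right of the dotted line, the constitutive subunits. Circles are Wnt3A arrays and squares Control arrays; both Psmb8 probes lie near 1 in Wnt3A arrays and between 8.71 and 17.1 in Control arrays, and levels are comparable only between arrays of 1 probe.

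The log2 ratio of Psmb8 to Psmb9 within an array was −3.74 and −3.07 in Wnt3A arrays, against 0.79 and 0.55 in Control arrays, a difference of −4.08. Scaling of an array cancels in this ratio. The exact permutation test gave a two-sided p of 0.333, the smallest that 2 against 2 arrays allow. The same difference was −3.98 against Psmb10, −3.69 against Psmb5, −3.34 against Tap1 and −2.92 against Tap2, each with the groups apart and the same smallest p. These ratios restate the Psmb8 difference and are no further evidence of it.

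Psmb8 lies in the class II region of the MHC on chromosome 17, close to Psmb9, Tap1 and Tap2. The probes of Psmb9 and Tap1 lie at −18.5 and −6.92 kb from it on mm8 and the Tap2 probe at 14.0 kb. Their log2 differences were 0.60, −0.14 and −0.56, with an SE of 0.27 to 0.58. Of the 11 other listed genes within 300 kb, H2-DMa, a chaperone of class II peptide loading, had the next lowest value, −1.13 ± 0.55 (adjusted p = 0.483).

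**Figure D4:**
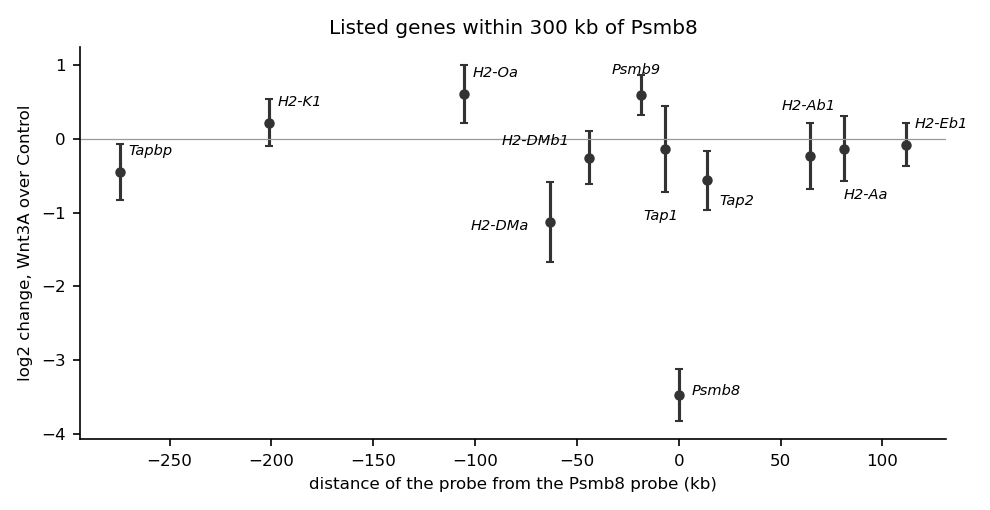
Log2 difference, Wnt3A over Control, with its SE (y axis) against the distance in kb of the gene's probe from the first Psmb8 probe (x axis) for the listed antigen processing and MHC class II genes within 300 kb. Psmb8 lies at −3.48, and the other 11 genes lie between −1.13 and 0.61.

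The peptide transporter and loading genes overlapped between groups or nearly so. Tap2 had 21.4 and 31.0 in Wnt3A arrays, against 47.2 and 31.1 in Control arrays, a log2 difference of −0.56 ± 0.40 (adjusted p = 0.638). Tap1 read 6.29 and 2.35 in Wnt3A arrays, against 4.66 and 3.89 in Control arrays, with the Wnt3A arrays on either side of the Control arrays and a log2 difference of −0.14 ± 0.58, or −0.86 to 0.59 with 1 array left out. Tapbp, which encodes tapasin, the bridge between transporter and class I molecule, had 21.0 and 12.7 in Wnt3A arrays, against 21.98 and 23.03 in Control arrays, a log2 difference of −0.45 ± 0.38 (adjusted p = 0.690). In the scanner signal Tap2 and Tapbp had the other sign, at 0.90 and 0.38, and Tap1 had −1.49. Without the faint Control replicate 1 in that signal Tap2, Tapbp and Tap1 had −0.02, −0.13 and −1.15.

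The class I molecules showed nearly level values in the table. B2m, the light chain, had 175 and 172 in Wnt3A arrays, against 161 and 156 in Control arrays, a log2 difference of 0.15 ± 0.28 (adjusted p = 0.874). H2-K1, a classical heavy chain, had 129 and 102 in Wnt3A arrays, against 106 and 93.4 in Control arrays, a log2 difference of 0.22 ± 0.32 (adjusted p = 0.828). Its other 3 probes gave −0.17, −0.19 and −0.23. H2-D1 gave 0.05 and, with its other probe, −0.13. These signs near 0 depended on the probe, and class I heavy chains are so alike that probes may read more than 1 of them. The table has no flag for saturation, and no member was flagged saturated in the scanner files. In the scanner signal B2m, H2-K1 and H2-D1 had 0.38, 0.22 and 0.38, and after normexp 0.89, 0.82 and 1.07. Without Control replicate 1 in the scanner signal they had −0.97, −0.56 and −0.40.

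The rest of the pathway was read from 6 further lists, in none of which a gene passed the adjusted threshold, with 0.761% of all tested genes passing. The unadjusted counts below stand beside 6.94% lower and 6.78% higher over all tested genes. Of the interferon ligands and receptors, 7 of 10 tested were lower in Wnt3A arrays, with a median log2 difference of −0.20 and 2 lower at an unadjusted p under 0.05. Ifnb1, the gene of interferon beta, had 0.503 and 0.554 in Wnt3A arrays, against 1.14 and 2.19 in Control arrays, a log2 difference of −1.57 ± 0.40 (adjusted p = 0.222). The receptor genes Ifngr1 and Ifnar2 had −0.80 and −0.73. Of the JAK, STAT and regulator genes, 10 of 15 were lower, with a median of −0.16, and 3 were lower and 1 higher at an unadjusted p under 0.05. Irf2, an antagonist of Irf1, had 3.70 and 3.76 in Wnt3A arrays, against 9.32 and 9.85 in Control arrays, a log2 difference of −1.35 ± 0.27 (adjusted p = 0.164). Socs3, an inhibitor of JAK signalling, had −1.18, and Ptpn2, a phosphatase of JAK and STAT proteins, had −1.21.

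Of the nucleic acid sensors and adaptors, 7 of 13 were lower in Wnt3A arrays, with a median log2 difference of −0.33 and 2 lower at an unadjusted p under 0.05. Ikbke, a kinase that activates interferon regulatory factors, had 2.06 and 2.03 in Wnt3A arrays, against 9.32 and 7.05 in Control arrays, a log2 difference of −1.97 ± 0.32 (adjusted p = 0.119). Ifi204, a DNA-binding member of the interferon-inducible family, had −1.18 and Zbp1, a sensor of Z-form nucleic acid, had −0.65. Of other interferon-induced genes, 28 of 42 were lower, with a median of −0.49, and 8 were lower and 4 higher at an unadjusted p under 0.05. Ccl5, a chemokine, had 9.94 and 13.4 in Wnt3A arrays, against 75.6 and 45.0 in Control arrays, a log2 difference of −2.33 ± 0.42 (adjusted p = 0.137). Lgals3bp, which encodes a galectin-binding glycoprotein, had −1.49 and Oas1b, of the oligoadenylate synthetase family, had −2.54. Oas1b read 0.353 and 0.137 in Wnt3A arrays, the second near its floor of 0.0729, against 1.41 and 1.18 in Control arrays.

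The further class I and peptide loading genes were even, with 10 of 21 higher and 11 lower, a median of −0.01, and 1 higher and 2 lower at an unadjusted p under 0.05. H2-M3, a nonclassical class I gene, had 0.707 and 3.99 in Wnt3A arrays, against 0.115 and 0.277 in Control arrays, a log2 difference of 3.25 ± 0.97 (adjusted p = 0.282). Control replicate 1 lay near its floor of 0.0702 for this gene, and the difference was 2.02 to 4.48 with 1 array left out. H2-T22 and H2-T10, further nonclassical genes, had −1.14 and −1.37. Of 8 class II genes, 6 were lower, with a median of −0.18 and none at an unadjusted p under 0.05. Beside H2-DMa, Ctss, a protease of class II processing, had −0.63 and H2-Oa, a class II chaperone subunit, had 0.61. The scanner signal did not keep the balance of several of these lists: 22 higher and 21 lower of the other interferon-induced genes (median 0.01), 9 and 6 of the JAK, STAT and regulator genes (0.34), 6 and 4 of the ligands and receptors (0.14), 5 and 3 of the class II genes (0.34) and 15 and 4 of the further class I genes (0.24). The sensors and adaptors counted 3 higher and 11 lower there, with a median of −0.31.

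Markers of other cell types were read beside these values. Over the whole array, 21190 of 27597 genes had a probe above the floor on all 4 arrays. A marker above the floor thus does not show that a cell type was present. All 7 stromal markers were above the floor on all arrays, with summed intensities of 1853 and 1870 in Wnt3A arrays, against 855 and 1164 in Control arrays. Bright probes of collagens, Fn1 and Vim made up most of that sum, and single markers differed in direction. Col3a1, Col1a1 and Col1a2 had log2 differences of 4.27, 1.81 and 1.35, and Vim had −0.90. The 8 macrophage and myeloid markers were all above the floor, with sums of 10.7 and 7.74 in Wnt3A arrays, against 11.3 and 8.75 in Control arrays. Of these, 6 had a difference above 0, with Lyz2 at 1.27, while Cd68 had −1.38. Ptprc, at 0.115 and 0.142 in Wnt3A arrays and 0.190 and 0.112 in Control arrays, lay near the floor. Of 6 dendritic and lymphoid markers 5 were above it on all arrays, with sums of 7.28 and 7.01 in Wnt3A arrays, against 11.9 and 7.79 in Control arrays. Of 4 endothelial markers 2 were above it on all arrays, with sums of 1.17 and 0.838 in Wnt3A arrays, against 1.12 and 1.67 in Control arrays. The part of these cells, or of the amplification, in the values above was not tested.

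Most single members kept their direction when the table was handled differently, and several did not in the scanner files. Over 12 other settings of the table, or 11 for Gbp2, 14 of 22 antiviral and 8 of 11 antigen processing members kept their direction in each. In the scanner signal, 18 of 22 antiviral and 6 of 11 antigen processing members had the direction of the table. Irf7, Ddx58, Ifih1 and Usp18 had −3.31, −0.95, −0.63 and −1.73 there and Stat2 −0.04, while Ifit2 had −0.34, opposite to the table.

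**Figure D5:**
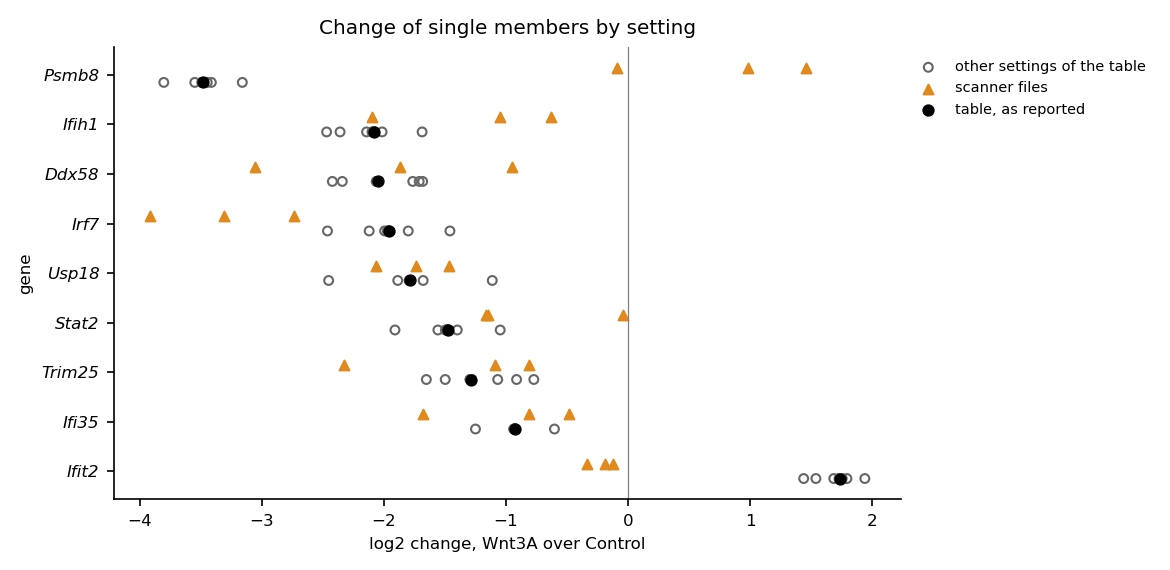
Log2 difference, Wnt3A over Control (x axis), of Psmb8 and the 8 antiviral members with the smallest p (y axis) in the table as reported (filled circles), under 12 other settings of the table (open circles) and in 3 settings of the scanner files (triangles). Psmb8 and Ifit2 have scanner values away from their table values and, for Ifit2 in all 3 and Psmb8 in 2 of 3, on the other side of 0, while the triangles of the other 7 genes all lie below 0.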

How the data were processed

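RNA of 2 Wnt3A and 2 Control samples was hybridised to 1-colour Agilent arrays. The authors deposited a table of linear intensity for 43379 spots with a median of 1 per array; how it was scaled is not given in the sources used here. The scanner files hold intensity from Agilent Feature Extraction 10.5.1.1, background-subtracted and not scaled between arrays, per the file headers. Flags for background, saturation and uneven spots were deposited there as other values. Per the file headers, the 4 scanner files share 1 scan.

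The table was the main source. Values were taken to log2, less the 75th percentile of the array. The floor of each array was its 1st percentile times 4.94, the median over the scanner files of the lowest signal flagged well above background over their own 1st percentile (4.85 to 4.99). A probe was kept if both arrays of either group passed the floor, and a gene was read by its kept probe of highest mean. Probes were named through the transcript accession (24375), the symbol (8727) or the name in the file (8072). The test of Wnt3A against Control was limma's (lmFit and eBayes, two-sided; limma 3.58.1, R 4.3.3), adjusted by Benjamini-Hochberg over 22859 genes with a threshold of 0.05. The median gene had a within-group SD of 0.376 in log2 units, and the number of arrays limits the precision.

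Values per array are given for the 8 antiviral and 6 antigen processing members with the smallest p, for Stat2, Irf9, Isg15, B2m and H2-K1, and where a probe or array disagreed. Of each further list the 3 genes with the smallest p are named. The members, lists and settings were chosen with earlier results of these data known. Other settings changed the source, scaling, floor, filter, probe rule, eBayes options, replicate block and arrays included.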

Additional observations from a re-analysis of the deposited data

How the results depend on the processing

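Over the whole array, 104 genes were called higher and 70 lower in Wnt3A arrays. No filter on dim probes gave 53 and 29, a filter above the floor on all 4 arrays gave 24 and 16, and trend and robust eBayes gave 130 and 110. The scanner signal gave 0 higher and 2 lower, against 285 and 251 at an unadjusted p under 0.05 in limma. Scanner values after normexp gave 0 and 0 (61 and 166 unadjusted), and the scanner signal without the faint Control replicate 1, chosen after seeing the data, 0 and 0 (219 and 161 unadjusted). Leaving out 1 array at a time gave 0 to 0 in each direction, with 1186 to 1588 higher and 1156 to 1502 lower unadjusted. With replicate number as a block, the counts were 0 and 0 (1574 and 1523 unadjusted). Same-numbered arrays deviated together with a correlation of 0.02, so the numbers are not shown to pair the samples.

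Antiviral members and the 6 further lists had 0 calls in each direction under every setting run. Antigen processing members had 1 call, Psmb8 lower, under each of 4 settings of the table: median scaling (adjusted p = 0.0493), a floor 2 times as high (0.0393), the mean of all kept probes (0.0376) and trend and robust eBayes (0.0295). With the block its adjusted p was 0.107 and without 1 array 0.160 to 0.201. In the scanner files Psmb8 had a log2 difference of 0.98, or 1.46 after normexp, and Ifit2 had −0.34, −0.12 after normexp and −0.19 without Control replicate 1; the cause was not tested. The median of antiviral members moved to −1.26 in the scanner signal without Control replicate 1, and was −0.56 to −0.33 with 1 table array left out. That of antigen processing members was 0.38 in the scanner signal and 1.07 after normexp, and −0.32 to 0.10 with 1 table array left out, the highest without Wnt3A replicate 2. With 1 array left in a group, its spread was taken to equal that of the other group. Signal near the floor limits Ifih1, Gbp2, Igtp and Oasl2, and H2-M3 and Oas1b of the further lists.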
